A study of Ceratopteris richardii with 9 samples.

Results

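The transcripts described here are putative Ceratopteris orthologs of SOMBRERO (SMB) and its closest relatives. SMB is a NAC transcription factor that in Arabidopsis promotes the maturation of root cap cells. They were the rows of the count table whose transcript number equalled transcript48177, transcript34113 or transcript125421, that is, 3 of the 28952 transcripts in the table, and all 3 were present. The study counts a further putative ortholog, which is not among them. Expression was measured by RNA-seq in 3 segments of Ceratopteris richardii Hn-n sporophytes at 45 days after fertilization, with 3 libraries each. The root tip (RT) was cut below the visible vascular strands, the differentiated root (DR) was the root without its tip, and the shoot (SH) held leaves and stem without roots. Every library was a pool of tissue from several plants grown under the same conditions, with no mutant or treatment, and the study describes the 3 libraries of a segment as independent biological replicates. Because the libraries are bulk tissue, fewer cells that express a transcript and less of it per cell cannot be told apart.

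NAC proteins are plant transcription factors that bind DNA through a conserved N-terminal NAC domain. In the Arabidopsis root cap, SMB acts in differentiating cap cells with its close relatives BEARSKIN1 and BEARSKIN2, and opposes FEZ, a NAC factor that promotes the divisions of root cap stem cells. The closest other relatives are the VND proteins, which switch on xylem vessel differentiation, and the NST proteins, which act in the thickening of secondary walls of fibres. In the protein tree of the study the 3 transcripts lie in fern-only groups, drawn apart from the seed plant groups of SMB, BEARSKIN, NST and VND. As far as the tree's print can be read, transcript48177, whose label there is blurred, stands in the fern group named SBN3. transcript34113 stands in SBN2 and transcript125421 in SBN1.

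The values are estimated read counts, rounded and divided by the library total after scaling with edgeR's TMM factors to CPM, the usual depth-scaled count unit. Total counts lay between 20065742 and 27376654 per library. The table gives no transcript lengths, so CPM of one copy cannot be read as higher or lower expression than CPM of another, and levels are compared only between segments. The counts of the 3 copies ranged from 17 to 396 per library. All 27 estimates were whole numbers within 1e-06, so for none of them did the table show a read divided in part between contigs. The segments were compared in 1 model of the 9 libraries (quasi-likelihood test, edgeR), with Benjamini-Hochberg adjustment of p over the whole table of 28952 transcripts. A transcript was called at an adjusted p of at most 0.05.

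Transcripts used as markers of the root segments were looked at first. The study described them by segment from these same libraries, so their direction here is not independent evidence. CriWUL (transcript86941), a WUSCHEL-related homeobox gene, had 3.08 ± 0.621 CPM (SD, n = 3) for the RT, 0.264 ± 0.124 CPM for the DR and 0.132 ± 0.0820 CPM for the SH. The D-type cyclin transcript68372, of a family that drives entry into the cell cycle, had 78.6 ± 12.6 CPM for the RT, 3.76 ± 1.76 CPM for the DR and 14.1 ± 1.58 CPM for the SH. CriWOXA (transcript45206) was called higher in the RT than in the DR, and its difference from the SH was not past the threshold (log2 fold change 0.99, adjusted p = 0.153, edgeR quasi-likelihood). CriWOXB (transcript86378) had 4.61 ± 1.97 CPM for the RT, 31.3 ± 12.6 CPM for the DR, its highest segment, and 1.08 ± 0.145 CPM for the SH. The study states that its DR result for CriWOXB contrasts with earlier reports, which also found this gene in the root tip. No annotation names other cell types in this table, so markers of the vascular tissue or of the differentiated cap itself were not examined.

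transcript48177 and transcript34113 were higher in the root tip than in either of the other segments, and transcript125421 was not called in any comparison. In the RT against the DR 2 of the 3 transcripts were called higher and 0 lower, and over all transcripts 29.9% were called higher and 27.9% lower. In the RT against the SH the same 2 transcripts were called higher, beside 29.9% higher and 28.2% lower over all transcripts. In the DR against the SH 1 of the 3 was called lower and 0 higher, beside 30.8% lower and 27.0% higher over all transcripts. In the RT against the mean of DR and SH 2 were called higher, beside 30.3% higher and 27.6% lower. With nearly 3 in 10 transcripts of the whole table called in each direction, these counts over 3 transcripts carry little by themselves, and the values of each transcript follow. The comparisons of the RT with the DR and with the SH share the RT libraries.

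**Figure D1:**
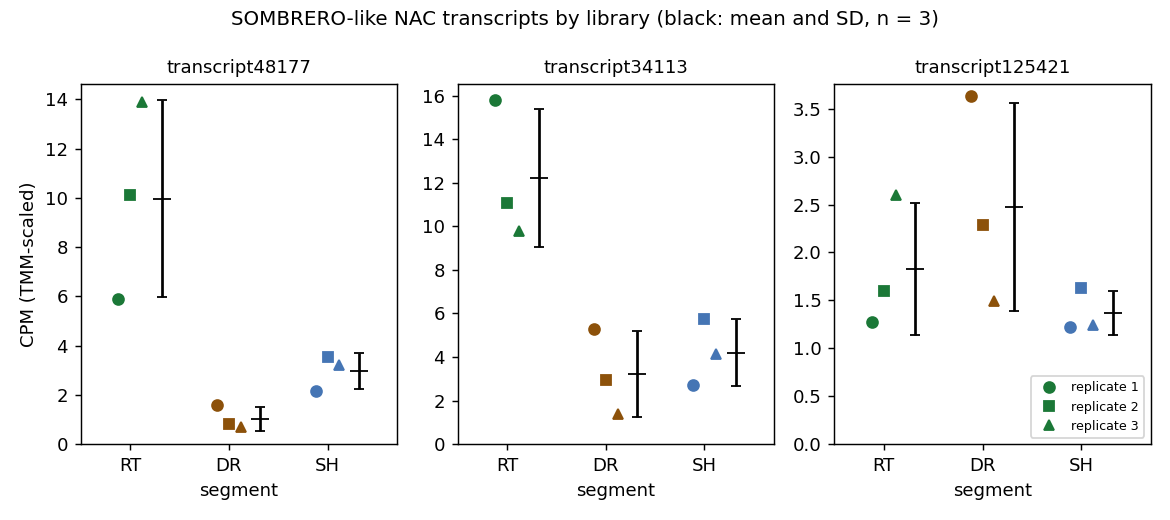
Level of each SOMBRERO-like transcript in CPM (vertical axes, from 0, a separate scale per panel) in the 3 libraries of the RT, DR and SH, with the mean and SD in black (n = 3). The RT libraries of transcript48177 (5.91 to 13.9 CPM) and transcript34113 (9.77 to 15.8 CPM) lie above all other libraries, while those of transcript125421 (1.28 to 2.60 CPM) overlap with the DR and the SH.

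transcript48177, of group SBN3, differed between all 3 segments. It had 5.91, 10.1 and 13.9 CPM in RT replicates 1 to 3, against 1.58, 0.812 and 0.686 CPM in the DR replicates and 2.15, 3.53 and 3.22 CPM in the SH replicates. The RT libraries were the highest and the DR libraries the lowest, and no library of one segment lay within the range of another. The means were 9.97 ± 4.00 CPM for the RT, 1.03 ± 0.483 CPM for the DR and 2.97 ± 0.725 CPM for the SH (SD, n = 3 each). The RT was 9.66-fold above the DR, a log2 fold change of 3.27 with a standard error of 0.42 and an adjusted p of 0.000135 (quasi-likelihood test, edgeR). The 95% interval of that log2 fold change ran from 2.32 to 4.22. The RT was 3.35-fold above the SH, with a log2 fold change of 1.75, a standard error of 0.39 and an adjusted p of 0.00365. The DR was below the SH, with a log2 fold change of -1.53, a standard error of 0.41 and an adjusted p of 0.0102. The order of the levels was therefore RT, SH and DR, with each neighbouring pair past the threshold. Of the 28952 transcripts, 96.8% had a smaller RT to DR log2 fold change than transcript48177.

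transcript34113, of group SBN2, was high in the RT, and the other 2 segments did not separate. It had 15.8, 11.1 and 9.77 CPM in RT replicates 1 to 3, against 5.29, 2.95 and 1.37 CPM in the DR replicates and 2.71, 5.76 and 4.12 CPM in the SH replicates. Each RT library exceeded the 6 others, and the ranges of the DR and the SH overlapped. The means were 12.2 ± 3.18 CPM for the RT, 3.20 ± 1.97 CPM for the DR and 4.20 ± 1.53 CPM for the SH (SD, n = 3 each). The RT was 3.80-fold above the DR, with a log2 fold change of 1.93, a standard error of 0.46 and an adjusted p of 0.00501 (quasi-likelihood test, edgeR). The RT was 2.90-fold above the SH, with a log2 fold change of 1.54, a standard error of 0.45 and an adjusted p of 0.0147. Without SH replicate 1, the lowest SH library, that difference was 1.31 and no longer past the threshold (adjusted p = 0.0580). Over the other settings its adjusted p was lowest at 0.00197. The DR and the SH differed by a log2 fold change of -0.39, with a 95% interval from -1.40 to 0.62 (adjusted p = 0.486). For the RT against the DR, 90.3% of all transcripts had a smaller log2 fold change than transcript34113.

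transcript125421, of group SBN1, was present in all 9 libraries and was not called between any of the segments. It had 1.28, 1.60 and 2.60 CPM in RT replicates 1 to 3, against 3.64, 2.29 and 1.49 CPM in the DR replicates and 1.23, 1.63 and 1.25 CPM in the SH replicates. The highest library was DR replicate 1, followed by RT replicate 3, and the range of every segment overlapped with the others. The means were 1.83 ± 0.690 CPM for the RT, 2.47 ± 1.08 CPM for the DR and 1.37 ± 0.230 CPM for the SH (SD, n = 3 each). The RT to DR log2 fold change was -0.44, with a 95% interval from -1.30 to 0.43 (adjusted p = 0.361, edgeR quasi-likelihood). The RT to SH log2 fold change was 0.41, with an interval from -0.48 to 1.31 (adjusted p = 0.397). The DR to SH log2 fold change was 0.85, with an interval from -0.04 to 1.74 (adjusted p = 0.0912). These intervals leave room for differences of more than 1 on the log2 scale, so the replicates do not show that the segments are alike. The DR exceeded the SH past the threshold without DR replicate 3 (1.11, adjusted p = 0.0377) and with library-size scaling alone (1.26, adjusted p = 0.0185), while without DR replicate 1 the difference was 0.46 and the adjusted p the highest of all settings, at 0.345.

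**Figure D2:**
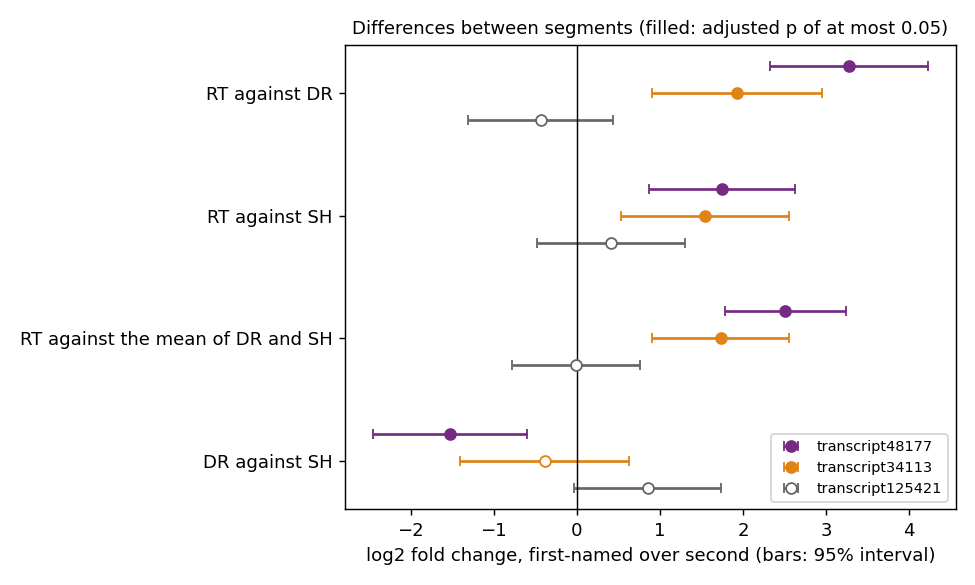
Log2 fold change of the first-named over the second segment (horizontal axis) for each transcript, with 95% intervals from edgeR's quasi-likelihood fit. Filled points have an adjusted p of at most 0.05. transcript48177 is called in all 4 comparisons, transcript34113 in the 3 that involve the RT, and transcript125421 in none.

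Set against the mean of DR and SH, transcript48177 was higher in the RT, with a log2 fold change of 2.51 and a standard error of 0.32 (edgeR quasi-likelihood, adjusted p = 0.000119). transcript34113 was also higher, with 1.73 and a standard error of 0.37 (edgeR quasi-likelihood, adjusted p = 0.00265). The difference for transcript125421 was -0.01, with a 95% interval from -0.78 to 0.76 (adjusted p = 0.982). A log2 fold change of at least 2, the threshold that the study's methods give for upregulation in its gene ontology analysis, was reached by transcript48177 and not by transcript34113 in this contrast. The study's results word it as a fold change of at least 2 over the other 2 segments. Read as a plain fold, transcript34113 also reached it, at 3.80-fold over the DR and 2.90-fold over the SH. For its selected orthologs of root genes the study names only an adjusted p of at most 0.05 as a filter.

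The replicates of the 3 transcripts spread widely. Of the 9 combinations of transcript and segment, 8 had a coefficient of variation above what counting alone would give, and the coefficients ran from 16.8% to 61.5%. For transcript34113 in the DR it was 61.5%, against 10.8% from counting alone. The exception was transcript125421 in the SH, at 16.8% against 18.2% from counting alone. By edgeR's dispersion estimate for each transcript, the biological coefficient of variation was 34.7% for transcript48177, 39.4% for transcript34113 and 33.9% for transcript125421. The value at the median dispersion of all transcripts was 24.4%.

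In the DR all 3 transcripts were highest in replicate 1 and lowest in replicate 3. The same order held for 26.3% of all transcripts. It also held for 5 of the 8 root cap transcripts described below, for the tip cyclin transcript68372, at 5.69, 3.32 and 2.26 CPM in DR replicates 1 to 3, and for CriWOXB, at 45.8, 24.3 and 23.6 CPM. It did not hold for CriWUL, at 0.184, 0.406 and 0.202 CPM, or for CriWOXA, at 0.147, 0.554 and 0.524 CPM. The part of this difference between DR libraries in the results was not tested beyond leaving each of them out. Without DR replicate 1 the RT to DR log2 fold change was 3.72 for transcript48177, 2.49 for transcript34113 and -0.05 for transcript125421, and the calls were as with all libraries.

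The relative levels of the copies were compared as the log2 ratio of (CPM + 0.5) of 2 copies within a library. A change of this ratio between segments needs no transcript length. The ratio of transcript48177 to transcript125421 averaged 2.13 ± 0.25 for the RT, -0.94 ± 0.17 for the DR and 0.87 ± 0.24 for the SH (SD, n = 3 each). Its libraries did not overlap between any of the segments. The mean RT ratio lay 2.17 above that of the 6 DR and SH libraries (exact permutation test, two-sided, p = 0.0238, the smallest that 3 against 6 libraries allow, adjusted p = 0.0357 over the 3 pairs of copies). The 2 copies thus did not vary in proportion over the segments.

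The ratio of transcript34113 to transcript125421 behaved likewise, at 2.46 ± 0.73 for the RT, 0.23 ± 0.29 for the DR and 1.28 ± 0.35 for the SH (SD, n = 3 each). The RT libraries lay above the 6 others, by 1.70 on average (exact permutation test, two-sided, p = 0.0238, adjusted p = 0.0357). Between the DR and the SH the 3 libraries of each did not overlap either. With 3 against 3 libraries the smallest p of the exact permutation test is 0.1, so no such pair of segments could pass 0.05.

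The ratio of transcript48177 to transcript34113, the copies that were both high in the tip, did not separate the RT from the rest. It averaged -0.33 ± 0.93 for the RT, -1.18 ± 0.45 for the DR and -0.41 ± 0.20 for the SH (SD, n = 3 each). The RT exceeded the other 6 libraries by 0.46, which was not past the threshold (exact permutation test, two-sided, p = 0.286, adjusted p = 0.286). The RT libraries alone spanned -1.35, -0.13 and 0.49 in replicates 1 to 3. transcript48177 was lowest in RT replicate 1 and highest in RT replicate 3, and transcript34113 the other way round. The difference between RT and the rest for this ratio was 0.97 without RT replicate 1 and 0.06 without RT replicate 3. Between the DR and the SH the mean ratio differed by -0.77, and the DR range reached from -1.48 to -0.66, against -0.64 to -0.28 in the SH.

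**Figure D3:**
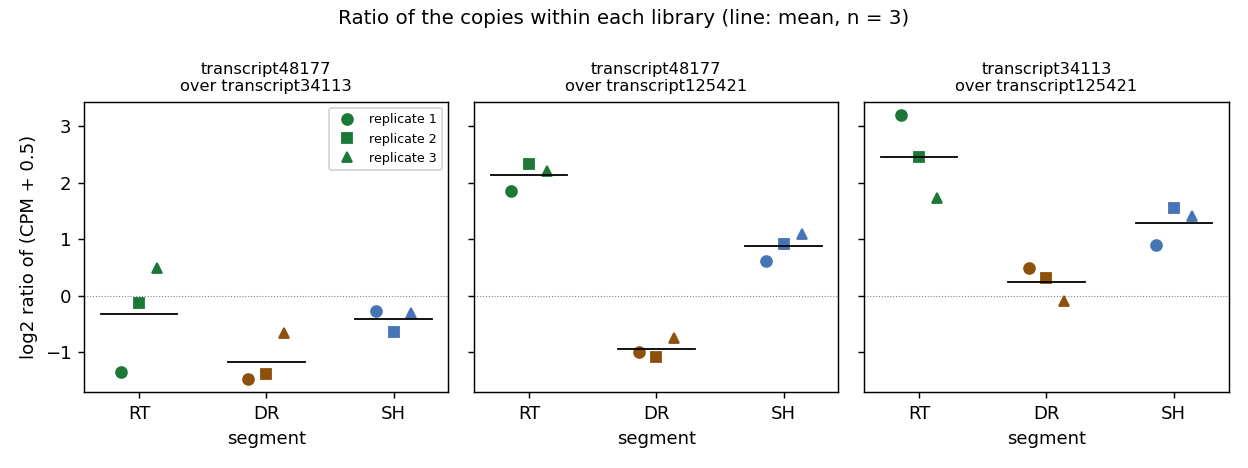
Log2 ratio of (CPM + 0.5) between 2 copies within each library (vertical axis) in the RT, DR and SH, with the mean of the 3 libraries as a line. Both ratios over transcript125421 are highest in the RT, with means of 2.13 and 2.46, and the ratio of transcript48177 to transcript34113 spreads from -1.35 to 0.49 among the RT libraries.

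As shares of the counts assigned to the 3 copies, which depend on their unknown lengths, transcript125421 took 7.49% ± 2.21 (SD, n = 3) for the RT, 38.2% ± 3.73 for the DR and 16.5% ± 3.15 for the SH. transcript48177 took 41.0% ± 13.9 for the RT, 15.9% ± 3.05 for the DR and 35.0% ± 2.62 for the SH. transcript34113 took 51.5% ± 16.0, 45.9% ± 6.36 and 48.4% ± 4.13 in the RT, DR and SH. The make-up of the group thus differed most in the share of transcript125421 between the DR and the RT, and least for transcript34113, whose shares overlapped in all segments.

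Rows of the table next to the members were examined because contigs with neighbouring numbers can come from one gene or from close copies. Within 2 numbers of a member there were 7 further transcripts. One of them, transcript125422, is a further Ceratopteris sequence of group SBN1, as far as the small print of the study's tree can be read. It had 0.320, 0.351 and 0.669 CPM in RT replicates 1 to 3, against 1.69, 1.33 and 0.484 CPM in the DR replicates and 0.971, 1.20 and 1.46 CPM in the SH replicates. The RT libraries lay below those of the SH and overlapped with the DR. It was called lower in the RT than in the SH, with a log2 fold change of -1.43 (adjusted p = 0.0351, edgeR quasi-likelihood), and lower than in the DR, with -1.38 (adjusted p = 0.0401). Both calls of transcript125422 were lost without RT replicate 1 or 2, without DR replicate 2, and without SH replicate 2 or 3. They were also lost with the replicate number as a block (edgeR quasi-likelihood, adjusted p = 0.0870 against the DR and 0.0721 against the SH). The call against the DR was lost with limma voom too (adjusted p = 0.0734). The same call was lost without DR replicate 1 (-1.01, adjusted p = 0.141, edgeR quasi-likelihood), without SH replicate 1 (adjusted p = 0.0528, edgeR quasi-likelihood) and in the fit of 2 segments (adjusted p = 0.0746, edgeR quasi-likelihood). The call against the SH was lost with library size alone (adjusted p = 0.102, edgeR quasi-likelihood). In the RT against the DR 4 of the 7 neighbours were called higher and 2 lower, beside 29.9% higher and 27.9% lower over all transcripts. Against the SH 1 neighbour was called higher in the RT and 3 lower, beside 29.9% and 28.2% over all transcripts. As log2 fold changes of the RT over the DR, the neighbours called higher were transcript48178 (2.09), transcript125423 (1.48), transcript34111 (1.25) and transcript48179 (0.81), and the lower ones transcript48176 (-2.36) and transcript125422. Over the SH, transcript34111 was higher (0.88), and transcript48176 (-2.30) and transcript48178 (-1.92) were lower, like transcript125422. transcript34112 was called in neither comparison. Apart from the tree position of transcript125422, nothing in the sources used here says whether these neighbours are NAC transcripts.

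Other transcripts that the study assigned to root cap genes were set beside the SOMBRERO-like ones. The list is a subset, limited to transcripts whose numbers were legible in the study's figure, and further ARF10/16, PIN and CUC transcripts were not used here. It held 2 ARF10/16 transcripts, auxin response factors that in Arabidopsis restrict columella stem cells, 3 PIN transcripts, which encode auxin efflux carriers, and 3 ACR4-related receptor kinases, of which ACR4 controls formative divisions in the root cap. The study chose this list on the same libraries, so its direction is not independent evidence. In the RT against the DR 4 of the 8 were called higher and 1 lower, beside 29.9% higher and 27.9% lower over all transcripts. The median log2 fold change was 0.73, against 0.07 over all transcripts. In the RT against the SH 7 were called higher and 1 lower, beside 29.9% and 28.2%, with a median of 1.10, against 0.11 over all transcripts. In the DR against the SH 2 were called higher and 4 lower, beside 27.0% and 30.8%, with a median of -0.51, against -0.08 over all transcripts.

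Over the 9 libraries, on log2(CPM + 0.5), transcript48177 followed the ACR4 transcripts transcript68964 (Pearson's r = 0.972) and transcript107875 (r = 0.953), the PIN transcript50074 (r = 0.971) and the cyclin transcript68372 (r = 0.978). Its r was lower with the ARF10/16 transcripts transcript37933 (0.780) and transcript75969 (-0.119), and with the ACR4-related transcript28691 (0.316). It was also lower with the PIN transcripts transcript38379 (0.089) and transcript89165 (-0.307). With the other tip markers, the r of transcript48177 was 0.881 (CriWOXA) and 0.782 (CriWUL). transcript34113 had r = 0.914 with transcript50074, its highest of the root cap list. Its lowest r of that list was -0.371, with transcript89165. With the tip markers its r was 0.892 (transcript68372), 0.840 (CriWUL) and 0.552 (CriWOXA). transcript125421 had its highest r of these with CriWOXB (r = 0.695), and r = -0.06 with transcript48177 and 0.08 with transcript34113, while transcript48177 and transcript34113 had r = 0.850 with each other. These values describe 9 libraries in 3 segments that all transcripts share, and large differences between segments raise r for any pair that follows them. Of 23291 other transcripts with a mean of at least 1 CPM, those most similar to transcript48177 were transcript99186 (r = 0.997) and transcript84392 (r = 0.995). For transcript34113 they were transcript44834 (r = 0.983) and transcript31248 (r = 0.982), and for transcript125421 they were transcript57507 (r = 0.973) and transcript24470 (r = 0.952). The table gives no gene names for them.

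**Figure D4:**
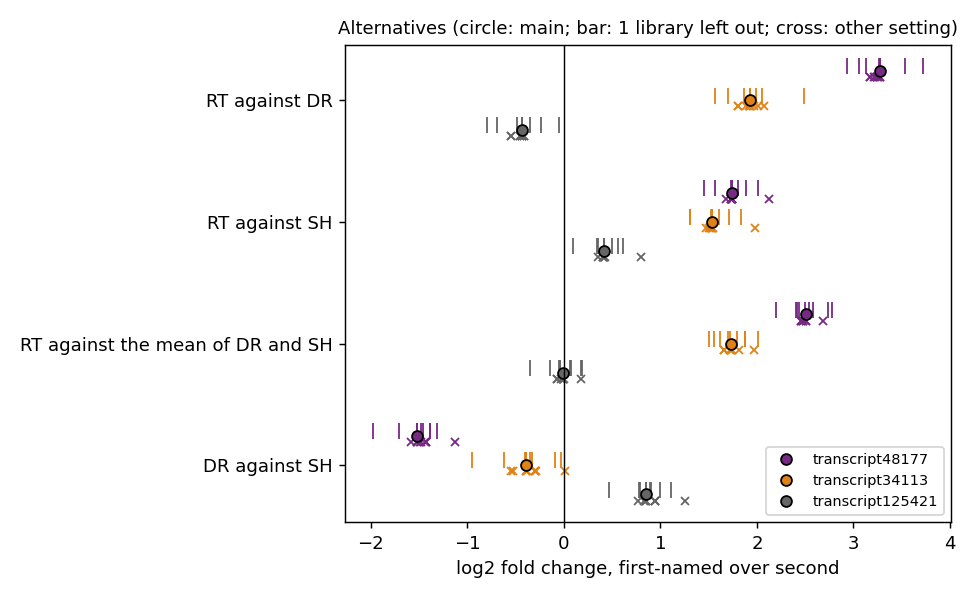
Log2 fold change of the first-named over the second segment (horizontal axis) for each transcript with all libraries (circles), with 1 library left out (bars) and under other settings (crosses). The RT values of transcript48177 and transcript34113 stay above 0 throughout, from 1.31 to 3.72, and those of transcript125421 lie on both sides of 0 against the mean of DR and SH.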

How the data were processed

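RNA was sequenced by the authors from RT, DR and SH, trimmed with Trimmomatic 0.32 and quantified with kallisto 0.44.0 against a Trinity transcriptome of all 9 libraries, clustered with CD-HIT and Compacta. tximport was used for import, and edgeR's filterByExpr to remove transcripts with low counts. Tool versions are from the submitters' processing notes. The study tested with limma voom, here an alternative. The deposited table holds estimated counts per transcript, not divided by library size or length although named for TPM, of which 17.1% to 19.1% per library are not whole numbers.

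Estimated counts were rounded and scaled with TMM in edgeR 4.0.16 (R 4.3.3). glmQLFit and glmQLFTest were run with 1 coefficient per segment on all 9 libraries (prior count 0.125), with Benjamini-Hochberg adjustment over all 28952 transcripts. Standard errors come from the log2 fold change and its F statistic, and intervals use the fit's degrees of freedom. Ratios of copies were tested by exact permutation. The code was tested on simulated data. Alternatives were other scaling, filterByExpr, DESeq2 1.42.0, limma 3.58.1 (voom), counts not rounded, a prior count of 1, the replicate number as a block, a fold threshold, fits of 2 segments and each library left out. Replicates differed by more than counting noise (mean chi-square per transcript at least 19.1 in every pair). The members and lists were chosen with earlier results of these data known. Named transcripts were the members, their neighbours within 2 numbers, the root cap list, the tip and root markers, and the 2 most similar transcripts per member. 0 of the transcript numbers matched the reference gene table, so no coordinates or sequences are given. Group names SBN and the number transcript125422 were read from the tree's image. Batches are not given in the sources used here.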

Additional observations from a re-analysis of the deposited data

How the results depend on the processing

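The calls of transcript48177 and transcript34113 as higher for RT against DR held under every setting except the log2 fold change threshold of the study's methods. By it only 1 of them was called (transcript34113 at 1.93 was not). By the same threshold 0 were called higher for RT against SH (1.75 and 1.54), 0 lower for DR against SH (-1.53 for transcript48177) and 1 higher for RT against the mean of DR and SH (1.73 for transcript34113 was not). With single libraries left out, the number called higher for RT against SH was 1 to 2, with transcript34113 between 1.31 and 1.83, lost without SH replicate 1 only. For transcript125421 in the DR against the SH the range was 0.46 to 1.11, called without DR replicate 3 only, so that 0 to 1 copies were called higher. It was also called with library size alone (1.26), where 1 copy was called higher. Library size alone moved the median of all transcripts by 0.42 in the RT against the SH and by 0.41 in the DR against the SH. The split of calls moved with it, to 67.8% higher of all calls in the RT against the SH, from 51.4%, to 64.6% from 46.7% in the DR against the SH, and to 62.7% from 52.3% against the mean of both. DESeq2 size factors moved the median by -0.11 in the RT against the DR. Among the neighbours, library size alone turned transcript48179 in the RT against the SH to 0.38 (-0.05 with TMM) and transcript34111 in the DR against the SH to 0.047 (-0.37 with TMM).

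For the ratios of copies, leaving out 1 library gave 1.96 to 2.39 for transcript48177 over transcript125421 and 1.34 to 2.07 for transcript34113 over transcript125421, with adjusted p of 0.0536 to 0.107 in every case. With fewer libraries the exact test allows only larger p, so this says nothing about stability.

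Of the root cap list, the fold threshold left 2 called higher for RT against DR and 0 lower, 2 higher than in the SH, 2 higher than in the mean of both and 1 lower for DR against SH. The number lower for RT against DR was 2 with DESeq2 size factors, DESeq2 and limma voom, 0 with library size alone, and 0 to 2 with single libraries left out. The number higher for RT against SH was 4 to 7 with single libraries left out, with 4 without RT replicate 2 and without SH replicate 1.

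For same-numbered libraries of different segments the correlations of deviations ran from -0.411 to 0.127, and for differently numbered ones from -0.263 to 0.385. These values showed no pairing by number, but with 3 libraries per segment they cannot decide whether the samples were paired. With the replicate number as a block, transcript48177 was at 3.21 in the RT against the DR (adjusted p = 0.00120, edgeR quasi-likelihood), 8172 transcripts were called higher there, against 8669 without it, no call of a member changed, both calls of its neighbour transcript125422 were lost, and the list had 0 lower for RT against DR.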

Other observations

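The summed level of the 3 copies, which mixes contigs of unknown length, was 23.0, 22.8 and 26.3 CPM in RT replicates 1 to 3, against 10.5, 6.06 and 3.55 CPM in the DR replicates and 6.08, 10.9 and 8.59 CPM in the SH replicates. In the RT the coefficient of variation of this sum was 8.13% (n = 3), although single copies varied by 26.0% to 40.1% there. transcript48177 was lowest and transcript34113 highest in RT replicate 1, and the reverse held in RT replicate 3. In the DR the sum varied by 52.5% and in the SH by 28.4%, and there the copies were highest and lowest in the same libraries. With 3 libraries per segment these are values without a test.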
